A study of Macaca mulatta with 136 samples.

Results

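The comparison described here sets the RPE/choroid of the perimacula against that of the periphery in rhesus macaque eyes. It rests on 8 of the 32 libraries of the series, 4 from the perimacula and 4 from the periphery, which were chosen by their tissue and location labels. RPE/choroid is the retinal pigment epithelium, a single layer of pigmented cells that serves the photoreceptors, together with the choroid, the vascular connective tissue beneath it. RNA was taken from 2 mm punches of both eyes of 2 adult animals, RM03 and RM04, so each location has 1 library per eye. The eyes were taken after death, and the labels of both groups name no treatment, allele, sex or strain. The location label reads periphery where the protocol text speaks of a temporal punch. The 2 eyes of an animal are not independent animals. The p-values below measure the spread between libraries of these 4 eyes that is left after animal and location are taken into account. They do not measure the spread between animals, and the main fit does not pair the libraries of an eye.

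The perimacula libraries were read in 5 lanes on 2 flow cells that the foveal and nasal libraries share, whereas the periphery libraries were read in 2 lanes on 1 other flow cell. Location and flow cell therefore cannot be told apart in any difference below. The foveal and nasal levels are given beside some genes because those libraries share the flow cells of the perimacula. Values are normalised read counts (CPM, counts scaled to library size) adjusted by the trimmed mean of M values, and the 4 values of a location follow the order RM03 right eye, RM03 left eye, RM04 right eye, RM04 left eye (replicates 1 to 4). Fold changes are log2 values coded perimacula minus periphery, so positive values are higher at the perimacula, with their standard error (SE). Adjusted p-values come from edgeR's quasi-likelihood test on 12 RPE/choroid libraries (fovea, perimacula and periphery) that take the animal into account, adjusted by the Benjamini-Hochberg method across the whole table, and a gene is said to be called where this value is under 0.05.

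The pigment epithelium takes up retinoids from the blood and returns 11-cis retinal to the photoreceptors, the visual cycle, while its melanin absorbs stray light and its junctions close the outer blood-retina barrier. The choroid carries arteries and veins with smooth muscle in their walls, a dense capillary bed next to the pigment epithelium, nerves with Schwann cells, fibroblasts, melanocytes and resident macrophages. The macula bears the sharpest vision in primates, and its pigment epithelium and choroid are where age-related macular degeneration begins.

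The 8 libraries held 52455814 to 69034378 counts each, and 16127 to 16896 of 19422 gene identifiers were above 0 in a library. The tissue label was checked by marker sums. The summed CPM of the 10 visual cycle genes ran from 2908 to 21452 in these libraries and averaged 888 and 2714 in the retina of the same locations, whereas the rod photoreceptor genes summed to at most 1023 here and averaged 16261 and 28432 in the retina. Some libraries stood apart. The Schwann cell and myelin genes summed to 13671 at the perimacula of the RM03 right eye and to 20406 at the periphery of the RM03 left eye, against 1569 to 1982 in the 8 foveal and nasal libraries, and the rod genes summed to 1023 and 765 at the periphery of the RM03 right and RM04 left eyes. The contents of a punch thus varied between eyes of the same location, and in bulk tissue fewer cells of a type and less RNA per cell cannot be told apart.

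Of 15674 genes tested, 5471 (34.9%) were called, of which 2770 (17.7%) were higher at the perimacula and 2701 (17.2%) at the periphery. The median log2 fold change over all genes tested was -0.04 and the median SE was 0.15. Among the called genes, 1180 differed by more than 1 on the log2 scale, 479 of them higher at the perimacula and 701 at the periphery. In 644 of these 1180 genes (54.6%) all periphery libraries lay outside the range of the 12 other RPE/choroid libraries, and in 1078 (91.4%) the nasal mean was nearer the perimacula than the periphery. The 1180 genes were chosen for their difference between perimacula and periphery in these same libraries, which favours both shares. Shares over all genes tested are not given here, so neither share is evidence that the periphery stands apart. The 4 perimacula and 4 periphery values did not overlap in 4192 of the genes tested (26.7%). The counts of list members below are read against the shares of 17.7% and 17.2% over all genes, and a count near these shares is not a result about the list.

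**Figure D1:**
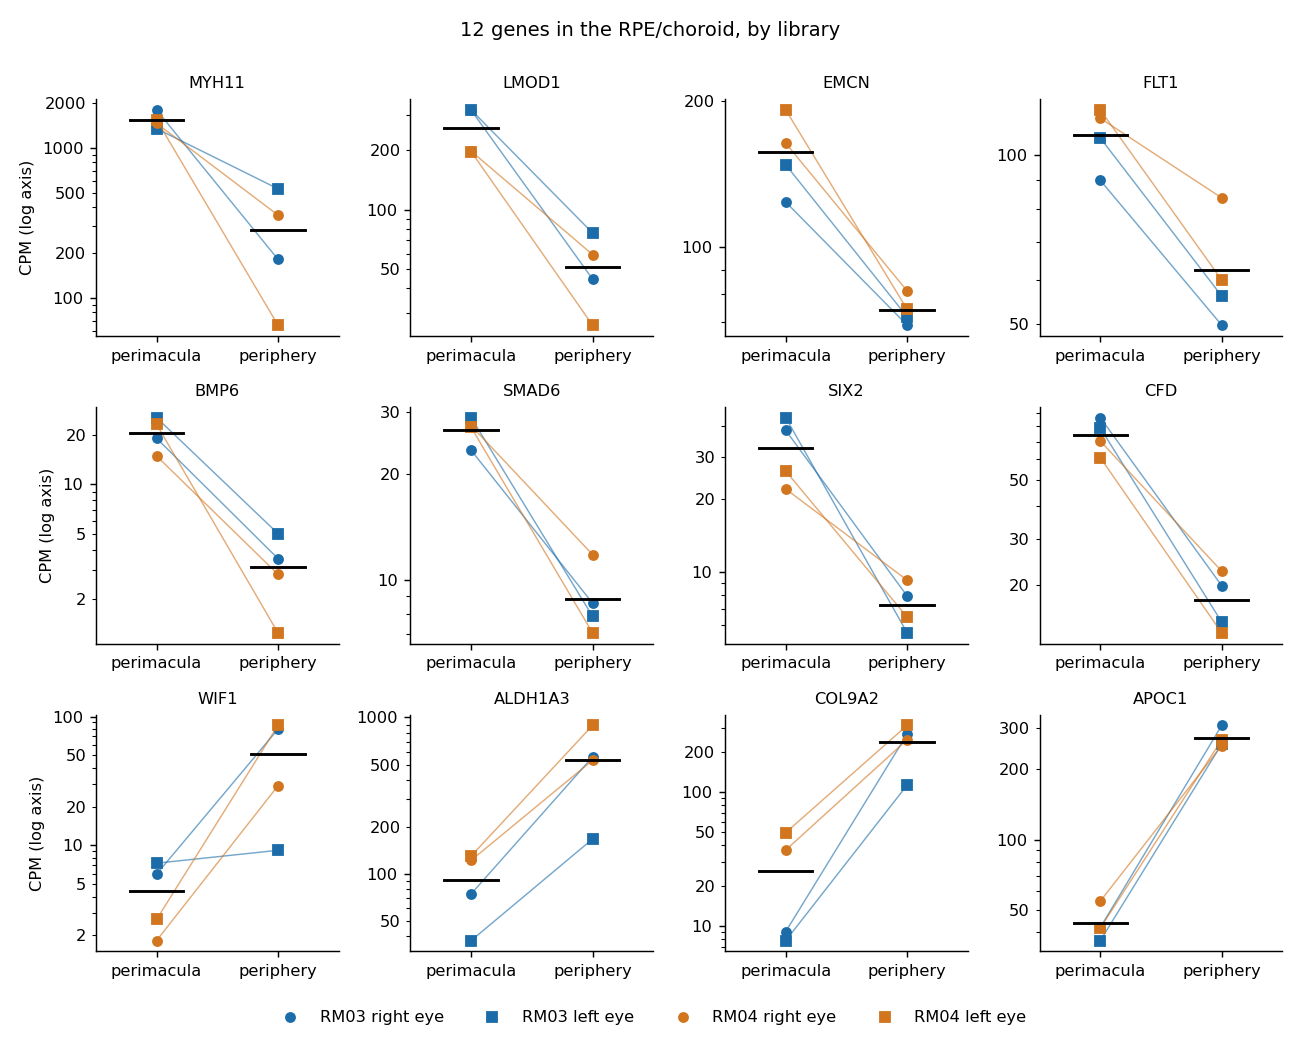
CPM of 12 genes on a log axis in the RPE/choroid, with the perimacula and the periphery on the horizontal axis, 1 point per library, a line joining the libraries of an eye and a black bar at the mean of 4 libraries. For MYH11 the perimacula libraries sit between 1340 and 1784 CPM and the periphery libraries between 65.5 and 532, whereas for APOC1 the perimacula libraries sit between 36.9 and 54.5 and the periphery libraries between 253 and 309.

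Smooth muscle genes were higher at the perimacula. Of 20 contractile genes tested, 16 were called higher at the perimacula and none at the periphery, all 20 had a positive fold change, and the median was 1.18 against -0.04 over all genes. MYH11 (ENSMMUG00000010367), the smooth muscle myosin heavy chain, had 1784, 1340, 1454 and 1533 CPM at the perimacula and 180, 532, 355 and 65.5 CPM at the periphery. The groups did not overlap, and the log2 fold change was 2.48 with an SE of 0.48 (adjusted p = 0.00237). LMOD1 (ENSMMUG00000001923), leiomodin, which nucleates actin filaments in smooth muscle, had 317, 318, 197 and 196 CPM at the perimacula and 44.6, 76.2, 59.3 and 26.1 CPM at the periphery, with a log2 fold change of 2.30 with an SE of 0.24 (adjusted p = 6.23e-05). ACTA2, the smooth muscle actin, had 1336 ± 229 CPM at the perimacula against 395 ± 229 CPM (SD, n = 4 eyes), and MYOCD, the transcription factor that drives this gene programme, 10.2 ± 2.44 against 3.16 ± 1.01 CPM.

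DES (desmin, an intermediate filament) and CASQ2 (a calcium store protein) had log2 fold changes of 2.11 and 2.21 (adjusted p = 0.00186 and 0.00589). Summed over the list, the 4 perimacula libraries lay between 6364 and 8774 CPM and the periphery libraries between 1691 and 4688 CPM, while the nasal libraries ran from 5295 to 8953 and the foveal libraries from 8916 to 14274. The perimacula thus lay among the nasal values and below the foveal ones, and the periphery was below all other locations. Between 14 and 19 members were called whichever single library was left out, 12 to 19 whichever eye was left out, and 14 without the periphery libraries of the RM03 right and RM04 left eyes. CNN1 (calponin) and ACTG2 (enteric-type actin) also passed, at adjusted p = 0.0101 and 0.025, but ACTG2 lost the call without any of 4 single libraries, with an adjusted p of up to 0.0589.

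Among pericyte genes, which mark the mural cells of capillaries, 4 of 9 tested were called, all higher at the perimacula, with a median of 0.65. MCAM had 456, 473, 288 and 305 CPM at the perimacula and 84, 153, 131 and 65 CPM at the periphery. PDGFRB, the receptor that recruits mural cells, had a log2 fold change of 0.73 with an SE of 0.10 (adjusted p = 0.000239), and CSPG4 and NOTCH3 had 1.20 and 0.83. RGS5, an abundant pericyte marker, was not called at 426 ± 65.4 CPM against 469 ± 150 CPM (SD, n = 4 eyes), with a log2 fold change of -0.13 and an SE of 0.18. Without the periphery libraries of the RM03 right and RM04 left eyes RGS5 was called higher at the periphery (-0.44, adjusted p = 0.00591). KCNJ8, ABCC9, NDUFA4L2 and COX4I2 were not called either, at 0.65, 0.45, 0.09 and 0.12 over all libraries. MCAM and NOTCH3, which were called, are also made by smooth muscle.

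Endothelial genes were mostly higher at the perimacula as well. Of 20 tested, 11 were called higher at the perimacula and 1 at the periphery, and the median was 0.43. EMCN (ENSMMUG00000038085), a capillary and venous sialomucin, had 124, 148, 164 and 192 CPM at the perimacula and 69.1, 71.9, 81.3 and 74.5 CPM at the periphery. The periphery values were close to each other and all below the lowest perimacula value, and the log2 fold change was 1.06 with an SE of 0.11 (adjusted p = 4.57e-05). ENG, a co-receptor of BMP9 on endothelium, PECAM1, a junction protein, and the transcription factor ERG had log2 fold changes of 1.07, 0.93 and 0.80. CDH5, the endothelial cadherin, differed by 0.42 with an SE of 0.07 (adjusted p = 0.00107).

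The exception was EGFL7, a secreted endothelial protein, which had 112 ± 26.4 CPM at the perimacula against 154 ± 48.5 CPM at the periphery (log2 fold change -0.45, adjusted p = 0.0177, and up to 0.0562 with 1 library left out). PLVAP and RGCC, used here as markers of the capillary bed next to the pigment epithelium, were not called, whereas EMCN, also a capillary gene, was. These few markers do not describe that bed as a whole. PLVAP, which forms the diaphragms of fenestrated capillaries, had 207 ± 45.3 CPM against 181 ± 35.3 CPM (log2 fold change 0.20, SE 0.17), and RGCC had 14.9 ± 5.42 CPM against 13.9 ± 3.18 CPM. The difference for PLVAP was thus smaller than that of EMCN or ENG, although the differences between genes were not tested.

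In the VEGF and angiopoietin pathway, which governs growth and stability of vessels, 6 of 15 genes were called, all higher at the perimacula, with a median of 0.38. These were receptors and angiopoietins and no VEGF ligand. FLT1 (ENSMMUG00000021538), the VEGF receptor that also circulates as a decoy, had 90, 107, 116 and 120 CPM at the perimacula and 49.8, 56.1, 83.8 and 59.9 CPM at the periphery (log2 fold change 0.81, SE 0.14, adjusted p = 0.00123). TEK, the angiopoietin receptor, had 0.65, and the co-receptors NRP1 and NRP2 had 0.43 and 0.50. NRP1 lost the call when 3 of the 4 eyes were left out in turn, with an adjusted p of up to 0.0747. ANGPT1 and ANGPT2 had 0.60 and 0.80, but ANGPT1 was not called with the eye as a block (adjusted p = 0.0698), and each lost the call without any of 5 single libraries, ANGPT1 with an adjusted p of up to 0.142 (without the perimacula library of the RM04 right eye) and ANGPT2 of up to 0.0813 (without that of the RM03 right eye).

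KDR, the main signalling receptor of VEGF, was not called at 238 ± 36.6 CPM against 184 ± 31.3 CPM (adjusted p = 0.0994). VEGFA, the ligand made by the pigment epithelium, had 83.7, 132, 153 and 257 CPM at the perimacula and 131, 47.6, 178 and 180 CPM at the periphery. The ranges of VEGFA overlapped, and the log2 fold change of 0.24 had an SE of 0.27. PGF, placental growth factor, split by animal, with 66.4 and 82.9 CPM at the perimacula of RM03 and 11.9 and 19.3 CPM at that of RM04, against 15.8 to 22 CPM at the periphery.

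Of 20 fibroblast genes tested, 6 were called higher at the periphery (against 17.2% of all genes) and 2 at the perimacula, 12 were not called, and the median was -0.50, or -0.51 in RM03 and -0.18 in RM04. DCN (ENSMMUG00000016997), the collagen-binding proteoglycan decorin, had 1859, 668, 1763 and 3134 CPM at the perimacula and 2768, 6501, 5628 and 5838 CPM at the periphery. Decorin was higher at the periphery in every eye, although the ranges overlapped, and its log2 fold change was -1.56 with an SE of 0.35 (adjusted p = 0.00581). The fibrillar collagens COL3A1 and COL1A2 had log2 fold changes of -0.89 and -0.57, and elastin, ELN, -0.61, whereas COL1A1 was level at 314 ± 116 CPM and 310 ± 57.1 CPM. The 2 members higher at the perimacula were COL6A1 (0.62) and POSTN, periostin, at 2 ± 0.927 CPM against 0.326 ± 0.395 CPM (log2 fold change 2.72, or 3.88 without the periphery library of the RM04 right eye). The summed fibroblast list was 4831 to 11183 CPM at the perimacula and 10642 to 19214 CPM at the periphery, where the highest value was that of the library rich in Schwann cell RNA.

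Cartilage-type matrix genes held large folds in both directions. COL2A1 (ENSMMUG00000011444), the collagen of cartilage and vitreous, had 19, 2.60, 11.5 and 24.8 CPM at the periphery and at most 0.206 CPM at the perimacula, 4180 counts against 30 in all, a log2 fold change of -6.93 with an SE of 0.74 (adjusted p = 7.11e-05), or -6.20 without the periphery library of the RM03 right eye. COL9A2 (ENSMMUG00000018664), which coats such fibrils, had 9.12, 7.81, 37 and 49.9 CPM at the perimacula and 271, 113, 246 and 315 CPM at the periphery (log2 fold change -3.79, SE 0.55, adjusted p = 0.000422), or -3.13 without that library. In the retina of the same punches COL2A1 and COL9A2 were also higher at the periphery, by -6.26 and -1.94 on the log2 scale. ACAN (ENSMMUG00000000554), the cartilage proteoglycan aggrecan, was the reverse, with 177 counts over the 4 perimacula libraries and 1 count over the periphery libraries, a ratio of 195 (95% exact interval 34.5 to 7740, counting error only). ACAN also stood at 0.734 to 2.68 CPM in the nasal and 2.11 to 6.13 CPM in the foveal libraries. Over the list, 4 of 18 tested genes were called higher at the periphery and 1 at the perimacula. The remaining 2 called were TNMD, a tendon glycoprotein whose level differed between the animals (0.0614 and 0.0310 CPM in RM03 against 5.08 and 7.77 CPM in RM04 at the perimacula), and CHAD. TNMD lost the call without the perimacula library of the RM03 right eye (0.05) and CHAD without that of the RM04 left eye (0.0537).

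Of 27 matrix proteases and inhibitors, 6 were called higher at the perimacula and 3 at the periphery, not far from the shares over all genes (17.7% and 17.2%). MMP14, the membrane-bound collagenase, had 406 ± 21.9 CPM against 261 ± 22.7 CPM (log2 fold change 0.64, adjusted p = 0.00106), and the inhibitor TIMP2 had 583 ± 60.7 CPM against 399 ± 47.1 CPM. The 3 genes higher at the periphery were all ADAMTS proteases, which cut proteoglycans. ADAMTS1 had 23.2, 15.7, 118 and 99.8 CPM at the perimacula and 71.9, 189, 287 and 260 CPM at the periphery (log2 fold change -2.08, adjusted p = 0.00116), and ADAMTS15 and ADAMTS5 had -1.33 and -1.89, ADAMTS5 losing the call when 3 of the 4 eyes were left out in turn. ADAMTS2, which trims procollagen, was higher at the perimacula by 0.81. HTRA1, a serine protease of a locus linked to macular degeneration, had 221 ± 40.2 CPM against 216 ± 46.1 CPM and was not called.

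The BMP pathway, in which ligands signal through receptor kinases and SMAD proteins to induce the ID genes, was tilted to the perimacula, with 10 of 26 genes called higher there, 2 at the periphery and a median of 0.24. Among ligands, BMP6 (ENSMMUG00000021600), an iron-responsive BMP made by endothelium and pigment epithelium, had 19.1, 25.5, 14.9 and 23.2 CPM at the perimacula and 3.54, 5.02, 2.84 and 1.25 CPM at the periphery. The groups were well apart, and the log2 fold change was 2.76 with an SE of 0.31 (adjusted p = 9.2e-05). BMP2 and BMP4 were not called, with log2 fold changes of 0.22 and -0.11. The receptor BMPR2 had 59.4 ± 5.19 CPM against 36.2 ± 4.25 CPM (log2 fold change 0.71, SE 0.08).

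Of the pathway's downstream genes, SMAD6 (ENSMMUG00000019018), an inhibitory SMAD that the pathway itself induces, had 23.4, 29, 27.5 and 27.2 CPM at the perimacula and 8.58, 7.87, 11.8 and 7.06 CPM at the periphery (log2 fold change 1.61, SE 0.15, adjusted p = 2.93e-05). The target genes ID1, ID2 and ID3 had log2 fold changes of 0.80, 0.81 and 1.02, whereas ID4 had -0.56. For ID3 the difference came mostly from RM03, with 265 and 292 CPM against 79.8 and 85.4 CPM, while RM04 had 138 and 159 CPM against 145 and 90.6 CPM. The antagonist SOSTDC1, which binds BMPs and Wnt co-receptors, was among the genes higher at the periphery, at 0.348 to 0.814 CPM against 3.13 to 18.3 CPM (log2 fold change -3.94, SE 0.80, adjusted p = 0.00333).

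Of 37 Wnt pathway genes tested, 8 were called higher at the perimacula and 2 at the periphery, with a median of 0.03. Secreted antagonists went both ways. WIF1 (ENSMMUG00000016887), which binds Wnt ligands, had 5.97, 7.26, 1.82 and 2.66 CPM at the perimacula and 79.8, 9.14, 29 and 85.4 CPM at the periphery, with a log2 fold change of -3.81 with an SE of 0.71 (adjusted p = 0.00202). The periphery of the RM03 left eye, at 9.14 CPM, was close to the perimacula values, and the nasal libraries reached 25.4 CPM. Without the periphery library of the RM04 left eye the log2 fold change was -3.14. DKK3, a Dickkopf family glycoprotein, had a log2 fold change of -1.26, and FRZB, a secreted frizzled-like antagonist, 0.90. The co-receptor LRP6 (0.73), the receptor FZD8 (0.85) and LEF1 (1.08), a transcription factor and target of the pathway, were higher at the perimacula. SFRP4 reached 240 CPM at the perimacula and ranged from 227 to 741 CPM at the periphery and was not called (adjusted p = 0.0841).

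Retinoic acid, which patterns the eye along its axes, is made by the ALDH1A enzymes. ALDH1A3 (ENSMMUG00000006659) had 74.4, 37.4, 122 and 130 CPM at the perimacula and 559, 167, 533 and 891 CPM at the periphery (log2 fold change -2.60, SE 0.34, adjusted p = 0.000244). ALDH1A1 was higher at the periphery by a log2 fold change of -0.66, and ALDH1A2 was not called, at 350 ± 134 CPM against 301 ± 112 CPM. The binding proteins CRABP1 and CRABP2 had log2 fold changes of -2.04 and -1.97. CYP26A1, which degrades retinoic acid, was not called over both animals and split between them, with 42.4 and 51.4 CPM at the perimacula of RM03, 4.68 and 3.28 CPM at that of RM04, and 12.3 to 18.8 CPM at the periphery. The receptor RARA had 78.4 ± 3.83 CPM against 55.2 ± 4.90 CPM (log2 fold change 0.51, adjusted p = 0.0013). In all, 4 of 15 members were called higher at the periphery and 2 at the perimacula.

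Transcription factors known for axis patterning or for mesenchyme held several of the firmest differences. Of 33 tested, 14 were called higher at the perimacula and 4 at the periphery, with a median of 0.59. TBX18 (ENSMMUG00000010599), a T-box factor of mural cells and mesenchyme, had 41.7, 40.2, 34.9 and 41.3 CPM at the perimacula and 19.4, 15.7, 15.1 and 12.5 CPM at the periphery (log2 fold change 1.34, SE 0.11, adjusted p = 1.31e-05). SIX2 (ENSMMUG00000023752), a homeobox factor of mesenchymal progenitors, had 38.5, 43.5, 22 and 26.1 CPM against 7.92, 5.57, 9.21 and 6.48 CPM (log2 fold change 2.07, SE 0.25, adjusted p = 0.000156). TBX2 and ZFHX3 had 1.33 and 1.10. In the nasal libraries TBX18 stood between 34.9 and 40.7 CPM, SIX2 between 21.9 and 45.3 CPM and ZFHX3 between 32.9 and 50.5 CPM, all above the periphery.

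TBX15 (ENSMMUG00000009257) was low throughout but had 6.77, 6.85, 1.84 and 3.89 CPM at the perimacula and at most 0.353 CPM at the periphery, 1206 counts against 36 (log2 fold change 5.71, SE 1, adjusted p = 0.00133). Its nasal level was 0.177 to 0.619 CPM, so the perimacula stood above both the nasal and the periphery libraries. EBF3 likewise stood above both, at 4.26 to 5.54 CPM at the perimacula, 0.614 to 1.21 CPM at the periphery and 0.0647 to 0.394 CPM at the nasal location. The foveal levels of TBX15 and EBF3 are not reported here, so neither gene is called particular to the perimacula. IRX6, of the Iroquois family, had a log2 fold change of 1.70, and IRX5 had 1.44 (adjusted p = 0.0181). IRX5 had 66.2 and 80.9 CPM at the perimacula of RM03 but 13.1 and 15.1 CPM at that of RM04, against 6.52 to 14.2 CPM at the periphery, and lost the call without the periphery library of the RM03 right eye (0.0587). Higher at the periphery were MEIS1 (log2 fold change -1.67), TWIST1 (-1.10), ZFHX4 (-0.68) and NR2F1 (-0.48), the last an orphan receptor needed for optic development.

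Genes of the pigment epithelium itself showed little shared direction. In the visual cycle 1 of 10 genes was called higher at each location, and the median was -0.12. RPE65 (ENSMMUG00000002752), the isomerase of the cycle, had 1520, 2675, 4136 and 6017 CPM at the perimacula and 4312, 463, 2516 and 5905 CPM at the periphery. The values spread over about the same range at both locations, and the log2 fold change of 0.05 had an SE of 0.53. TTR (ENSMMUG00000016673), the retinol transport protein transthyretin, had 995, 1563, 1841 and 2183 CPM at the perimacula and 8323, 1197, 3941 and 7647 CPM at the periphery, with a log2 fold change of -1.72 with an SE of 0.46 (adjusted p = 0.0148). TTR was higher at the periphery in 3 of 4 eyes, and without the periphery library of the RM03 right eye the log2 fold change was -1.01 (adjusted p = 0.0546). RDH10, a retinol dehydrogenase, was higher at the perimacula by 1.07 with an SE of 0.38 (adjusted p = 0.0494), and lost the call without any of 6 single libraries, with an adjusted p of up to 0.135.

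The summed visual cycle genes overlapped between the locations. They stood at 4713, 7863, 10526 and 15569 CPM at the perimacula and 19224, 2908, 10450 and 21452 CPM at the periphery, where the libraries of the RM03 right and RM04 left eyes had the highest visual cycle and the highest rod sums, and the library of the RM03 left eye had the lowest visual cycle and the highest Schwann cell sum. Without the periphery libraries of the RM03 right and RM04 left eyes, which leaves 1 periphery library per animal, 6 visual cycle genes were called higher at the perimacula, none at the periphery, and the median was 0.79. The direction for this list therefore rested on which periphery libraries were kept, and the part of punch content in it was not tested.

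**Figure D2:**
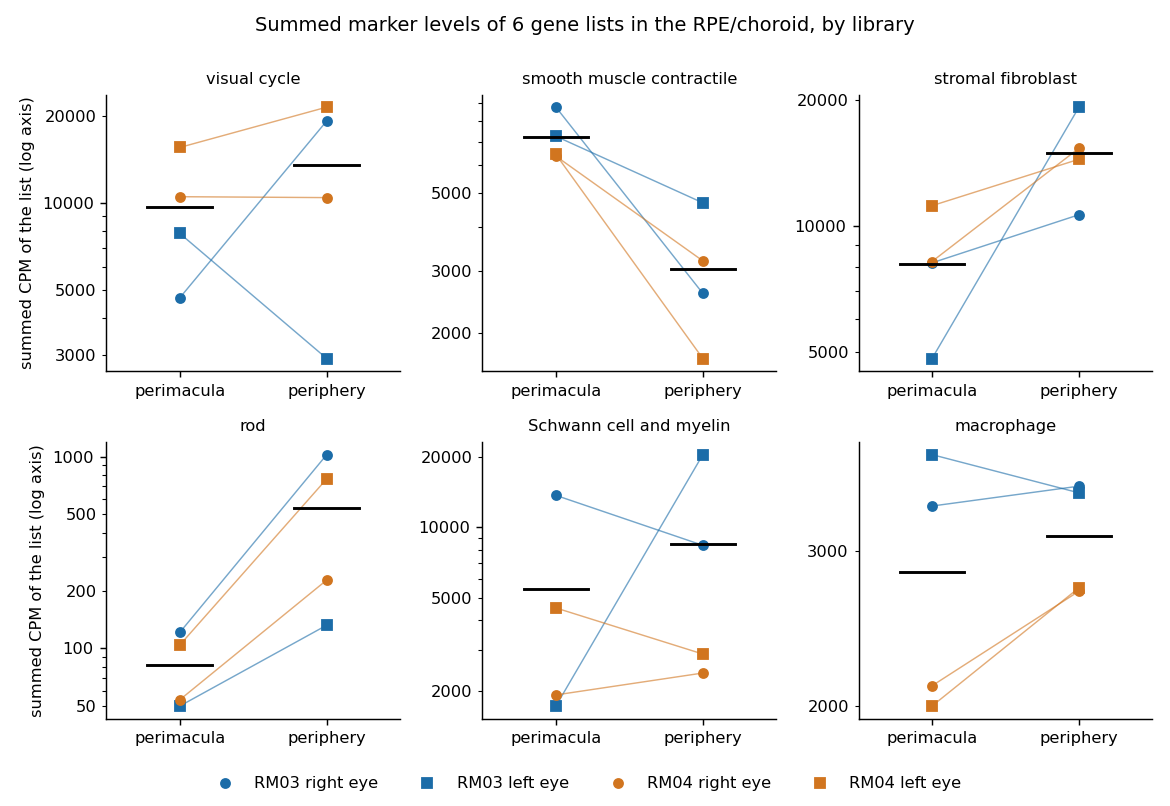
Summed CPM of 6 gene lists on a log axis in the perimacula and periphery libraries, 1 point per library, a line joining the libraries of an eye and a black bar at the mean of 4 libraries. The smooth muscle sums of the perimacula (6364 to 8774 CPM) all lie above those of the periphery (1691 to 4688 CPM), whereas the visual cycle and Schwann cell sums overlap, and the rod sums reach 1023 CPM at the periphery and 121 CPM at the perimacula.

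Of 14 pigment genes, 3 were called higher at the periphery and 2 at the perimacula, near the shares over all genes, with a median of -0.18. PMEL (ENSMMUG00000018816), the fibril protein of the melanosome, had 4372, 4891, 3324 and 2804 CPM at the perimacula and 7597, 6306, 5270 and 5435 CPM at the periphery (log2 fold change -0.70, SE 0.11, adjusted p = 0.000789). DCT (ENSMMUG00000021817), an enzyme of eumelanin synthesis, went the other way with 39, 38.3, 227 and 157 CPM against 22.8, 9.40, 51.3 and 46.6 CPM (log2 fold change 1.61, SE 0.25, adjusted p = 0.000662). DCT differed more between the animals than between the locations, and in each eye the perimacula was higher. TYR, tyrosinase, was higher at the perimacula by 0.36 (adjusted p = 0.0249, and up to 0.0907 with 1 library left out). TYRP1 and SLC24A5, at -0.25 and -0.39, passed at 0.0487 and 0.0396, but not with the eye as a block (0.0698 and 0.0666).

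Among 28 transport, junction and other epithelial genes tested, 4 were called in each direction, with a median of 0.07. Without the periphery libraries of the RM03 right and RM04 left eyes 9 were called higher at the perimacula and 2 at the periphery. The median was then 0.53, so the even split rested on which periphery libraries were kept. OCLN, the tight junction protein occludin, had 15.3 ± 2.91 CPM against 8.92 ± 0.790 CPM (log2 fold change 0.77, adjusted p = 0.00153), and TJP1, its scaffold, had 0.43 (adjusted p = 0.043, or 0.0545 with the eye as a block). ITGB5, an integrin for uptake of outer segments, and SOX9 had 0.70 and 0.78. SERPINF1, the antiangiogenic factor PEDF, was higher at the periphery, with 423, 463, 508 and 609 CPM at the perimacula against 980, 618, 817 and 1107 CPM (log2 fold change -0.82, SE 0.15, adjusted p = 0.00181). CLDN10, CFTR and SLC16A3 were also higher at the periphery. CLDN10 differed by -1.98, or -1.28 without the periphery library of the RM03 right eye. Without that library and the RM04 left one CLDN10 had -0.68 and was not called. SLC16A3 had an adjusted p of up to 0.0641 with 1 library left out, and CFTR had an adjusted p of 0.0321 that became 0.0508 with the eye as a block. BEST1, the bestrophin channel, was not called at 408 ± 188 CPM against 493 ± 234 CPM.

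Of 16 genes of inherited macular or pigment epithelial disease, 2 were called, both higher at the perimacula, which is not above the share over all genes (17.7%). CHM, the Rab escort protein lost in choroideremia, had 35.3 ± 4.02 CPM against 28.3 ± 3.31 CPM (log2 fold change 0.32, adjusted p = 0.0244, and up to 0.0811 with 1 library left out). The other, CTNNA1, has 2 entries with its symbol, so its counts may be split and are not given. ABCA4, at 178 ± 91.8 CPM against 185 ± 89.2 CPM, and EFEMP1, at 969 ± 284 CPM against 681 ± 51.7 CPM, were not called. The median of the list was -0.21. Without the periphery libraries of the RM03 right and RM04 left eyes it was 0.37, with 4 members called higher at the perimacula and 0 at the periphery. The direction for this list thus also rested on which periphery libraries were kept.

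Photoreceptor and inner retinal genes served as markers of retinal RNA in the punches, and the rod genes leaned to the periphery. Of 10 rod genes tested, 5 were called, all higher at the periphery, and the median was -2.95. SAG (ENSMMUG00000023359), arrestin of rods, had 29.2, 6.97, 5.98 and 18.9 CPM at the perimacula and 388, 52.2, 92.7 and 286 CPM at the periphery (log2 fold change -3.71, SE 1.08, adjusted p = 0.0214). Without the periphery libraries of the RM03 right and RM04 left eyes none of the 10 was called and the median was -0.91, and SAG had an adjusted p of 0.195. Of 10 cone genes none was called, and their sums were 131 to 295 CPM at the perimacula and 46.7 to 273 CPM at the periphery.

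Of 14 inner retinal and Muller glia genes, 5 were called higher at the periphery and 1 at the perimacula, and the summed levels overlapped, at 853 to 1161 CPM and 879 to 1334 CPM. GRM6, the glutamate receptor of ON bipolar cells, had at most 0.237 CPM at the perimacula and 0.526 to 5.84 CPM at the periphery (log2 fold change -3.80, or -2.32 without the periphery library of the RM03 right eye), and the glial transporter SLC1A3 had 20.2 ± 9.85 CPM against 41.8 ± 15.4 CPM. The gene higher at the perimacula, TFAP2A, had 76 ± 14.9 CPM against 45.3 ± 17.9 CPM and is also made outside the retina. The photoreceptor genes SAG, GNGT1 (-3.60), RP1 (-3.18), PDE6B (-3.05) and PDC (-2.97) were among the largest negative folds, and each lost the call without the periphery library of the RM03 right eye, at log2 fold changes of -2.41, -2.07, -1.73, -1.83 and -2.35.

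Schwann cell genes varied widely between punches of the same location. Their summed CPM was 13671, 1724, 1923 and 4521 at the perimacula and 8366, 20406, 2385 and 2874 at the periphery. Of 21 tested, 2 were called in each direction, with a median of -0.01, or -0.65 in RM03 and 0.53 in RM04. ERBB3, the neuregulin receptor of Schwann cells, and S100B, a calcium-binding protein of Schwann cells and other glia, were higher at the periphery (log2 fold changes -0.49 and -1.49), whereas GFRA3, a receptor of the GDNF family, was higher at the perimacula (1.27). MLIP, a muscle-enriched gene, was high in the same libraries, with 203, 3.80, 1.17 and 43.1 CPM at the perimacula and 171, 416, 21.6 and 31.2 CPM at the periphery. Of 14 skeletal muscle genes tested, TNNI1 and RYR1 were higher at the periphery, by -1.48 and -0.67, and 1 gene with a symbol shared by 2 entries was higher at the perimacula.

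Of 18 macrophage genes, 4 were called higher at the periphery, near the share over all genes (17.2%), and 1 at the perimacula, with a median of -0.26. The 4 became 2 in RM03 alone and 10 in RM04 alone, and up to 8 with 1 library left out. AIF1 (ENSMMUG00000039582), a marker of macrophages and microglia, had 34.9, 36.7, 28.9 and 24.3 CPM at the perimacula and 69.9, 68, 58.8 and 52.2 CPM at the periphery (log2 fold change -1.01, SE 0.11, adjusted p = 6.96e-05). CD14, the co-receptor for lipopolysaccharide, had a log2 fold change of -0.67 with an SE of 0.07 (adjusted p = 5.91e-05). LYVE1, which marks perivascular macrophages and lymphatic endothelium, had 12.6, 13.1, 9.98 and 10.7 CPM at the perimacula and 2.96, 8.41, 4.39 and 4.14 CPM at the periphery, with a log2 fold change of 1.23 (adjusted p = 0.00399). Of 13 lymphocyte and mast cell genes tested, 2 were called higher at the periphery, near the share over all genes (17.2%), and 11 were not called. The 2 were CD3D of the T cell receptor complex (-0.99) and JCHAIN of antibody-secreting cells (-1.28). CD3E, CD2 and CD8A were among those not called, at -0.30, -0.36 and -0.05, as was MS4A1 at 0.86. CD3D did not pass without the RM04 left eye (adjusted p = 0.0568). JCHAIN did not pass with the eye as a block (adjusted p = 0.0842) or without the periphery library of the RM03 left eye (log2 fold change -0.63, adjusted p = 0.158).

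Complement, a cascade of plasma proteins that tags cells for removal and is tied by genetics to macular degeneration, had 5 of 21 genes called higher at the perimacula and 6 at the periphery. CFD (ENSMMUG00000028947), the protease that starts the alternative pathway, had 86.2, 78.7, 70.3 and 60.8 CPM at the perimacula and 19.9, 14.5, 22.6 and 13.2 CPM at the periphery (log2 fold change 2.05, SE 0.29, adjusted p = 0.000386). The inhibitors CD55 and SERPING1 were higher at the perimacula by 0.65 and 0.52. CD59, which blocks the terminal pore, was higher at the periphery by a log2 fold change of -0.32, together with the components C2 (-0.67) and C7 (-1.57). C7 is also a fibroblast gene, with 84.9, 60.1, 145 and 240 CPM at the perimacula and 222, 446, 360 and 372 CPM at the periphery.

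Immediate early and heat shock genes, which respond to handling of tissue, also moved with location. Of 15 tested, 8 were called higher at the perimacula and 1 at the periphery, with a median of 0.52. EGR1 had 87.8, 42.5, 209 and 173 CPM at the perimacula and 19.3, 30.7, 74.4 and 34.7 CPM at the periphery (log2 fold change 1.6, SE 0.28, adjusted p = 0.00123), and EGR3, ZFP36 and JUN had 1.54, 0.93 and 0.71. FOS was not called, at 32 ± 14.4 CPM against 19.9 ± 6.10 CPM. The heat shock gene HSPA1B was higher at the periphery (-0.40, adjusted p up to 0.0592 with 1 library left out), and HSP90AA1 at the perimacula (0.52). KLF2 and CEBPD, below, are induced quickly by stress too, and the part of tissue handling in these differences was not tested.

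**Figure D3:**
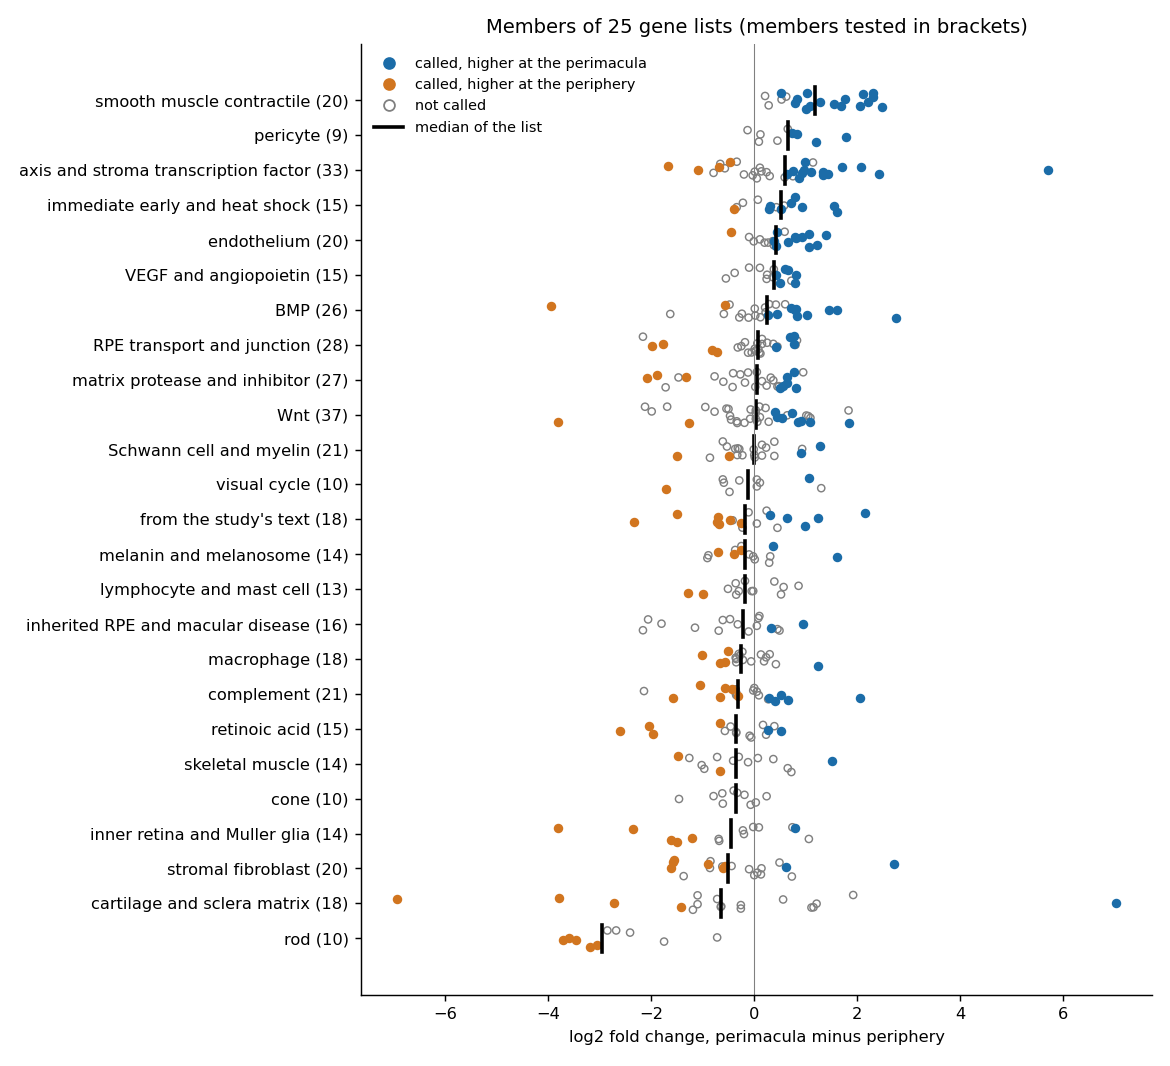
Log2 fold change (perimacula minus periphery, horizontal axis) of every tested member of 25 gene lists, 1 point per gene, with filled points for called genes, open grey points for the others and a black bar at the median of each list. The lists run from rod genes, with a median of -2.95, to smooth muscle genes, with a median of 1.18, and the other medians lie between -0.65 and 0.65.

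The genes with the largest differences among well expressed called genes belonged partly to these groups. At the perimacula they were led by CPAMD8 (ENSMMUG00000017254), of the alpha-macroglobulin family, with 175, 197, 130 and 89.9 CPM against 20.3, 24, 19.5 and 10.9 CPM (log2 fold change 2.98, SE 0.22, adjusted p = 7.52e-06). CEBPD (ENSMMUG00000013151), a transcription factor of acute responses, had 50.4, 37.9, 48 and 36.8 CPM against 5.18, 6.21, 8.94 and 4.63 CPM (log2 fold change 2.79, SE 0.20, adjusted p = 7e-06). KLF2, a flow-responsive factor of endothelium, had 38.3, 33.9, 83.9 and 80.9 CPM against 5.25, 8.76, 19 and 9.51 CPM. OPTN, an autophagy receptor linked to glaucoma, had 251 ± 15.3 CPM against 57 ± 13.1 CPM, with 115 to 163 CPM in the nasal libraries (log2 fold change 2.15, SE 0.14, adjusted p = 4.01e-06).

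Others of the 15 highest were the secreted proteins SCUBE1 (2.67), SLIT3 (2.16) and CXCL14 (2.15), the collagen COL28A1 (2.20), KLHDC8A (2.65), the transporters SLCO1C1 (2.55), which carries thyroid hormone, and SLC22A6 (2.26), an organic anion exchanger, and the smooth muscle genes MYH11, CNN1, LMOD1 and CASQ2. COL28A1 had 35, 22.9, 46.1 and 39.9 CPM at the perimacula and 4.30, 7.74, 10.5 and 8.99 CPM at the periphery. SLCO1C1 varied widely, from 61.3 to 195 CPM at the perimacula and from 4.41 to 43.8 CPM at the periphery, and did not pass without the RM04 right or left eye.

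At the periphery APOC1 (ENSMMUG00000028749), an apolipoprotein, had the lowest adjusted p of the genes named here. It had 42, 36.9, 54.5 and 41.8 CPM at the perimacula and 309, 257, 253 and 268 CPM at the periphery, and 33.4 to 69.6 CPM in all foveal and nasal libraries (log2 fold change -2.64, SE 0.12, adjusted p = 7.36e-07). CAPN6, a calpain without protease activity, had 126, 66.8, 186 and 199 CPM against 436, 1024, 852 and 849 CPM (log2 fold change -2.57, adjusted p = 0.000153). ANGPTL7, an angiopoietin-like secreted protein, and KIF5C, a neuronal kinesin, had -2.26 and -2.33. The immunoglobulin segments IGHV4-28 and IGHV3-49 had -3.74 and -3.42, with the highest value in the periphery of the RM03 left eye (408 and 125 CPM), and such segments share sequence with each other, so their counts are uncertain. Without that library they had -2.66 and -2.30. IGHV3-49 did not pass with the eye as a block (adjusted p = 0.0701). The uncharacterised LOC106992286 had -3.74, or -2.43 without the periphery library of the RM03 right eye and -1.99 without that and the RM04 left one. The remaining genes of the 15 were WIF1, COL9A2, ALDH1A3 and the rod genes named above.

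A list of 19 genes was taken from the study's text, most of them discussed there for the RPE/choroid with these same libraries in view, so their direction is not independent evidence. The study described these genes mainly for the fovea or macula against the periphery. The contrast here is perimacula against periphery, so a gene not called here does not contradict the study. Of the 18 tested, 5 were called higher at the perimacula and 7 at the periphery. SULF1 (ENSMMUG00000023274), which trims heparan sulfate, had 1148, 1383, 1038 and 1695 CPM at the perimacula and 545, 448, 530 and 720 CPM at the periphery (log2 fold change 1.24, SE 0.17, adjusted p = 0.000284). CXCL14 (2.15), IRX2 (0.98), VEZF1 (0.64) and VIM (0.30) were also higher at the perimacula, IRX2 with an adjusted p of 0.0462 that rose to 0.114 without the perimacula library of the RM04 right eye and VIM with 0.0175 that rose to at most 0.0627 with 1 library left out. Higher at the periphery were S100B, PMEL, TYRP1, NR2F1 and ZFHX4, given above, and SCG5 (-2.34) and SRSF3 (-0.72), whose symbols each have 2 entries and are uncertain. ABCA4, TIMP3, VEGFA, WFDC1, GNG11 and IVNS1ABP were not called, with log2 fold changes of -0.11, 0.45, 0.24, 0.05, -0.23 and -0.42. FOXI3 was under the count filter, at 0 in the perimacula libraries and at most 0.466 CPM at the periphery.

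Fitted separately, RM03 gave 1561 called genes (9.97%) and RM04 gave 3315 (21.1%), of which 1084 were called in both with the same direction (69.4% of the calls in RM03 and 32.7% of those in RM04) and 4 with opposite directions. Across 15352 genes the fold changes of the animals had a Pearson correlation of 0.547, a description across genes that share libraries within an animal. The smooth muscle median was 1.31 in RM03 and 1.39 in RM04, and the endothelial median 0.43 and 0.57. Several other lists had medians that differed more. Among them were the Schwann cell genes, at -0.65 in RM03 and 0.53 in RM04, and the cone genes, at -0.27 and -0.92. The macrophage genes had 0.05 and -0.47, and the BMP genes 0.49 and 0.16. The differences between the animals in these medians were not tested.

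The dependence of the location difference on the animal was tested gene by gene. By edgeR 2 of 15674 genes were called (0.0128%), and 1204 had an unadjusted p under 0.05. DESeq2 called 229, and edgeR called 0 to 114 with an eye left out (114 without the RM03 right eye). LRRTM3, a synaptic adhesion protein, had 0.154 and 0.109 CPM at the perimacula of RM03 and 3.02 and 2.38 CPM at that of RM04, against 2.41 to 4.03 CPM at the periphery of both, a difference of 4.87 on the log2 scale between the animals. The other was an entry of LANCL1, a symbol carried by 2 entries, so its values are left out. TSHR, the thyrotropin receptor, had a like pattern, with 0.798 and 0.217 CPM at the perimacula of RM03 and 64.9 and 46.2 CPM at that of RM04, and its call over both animals (log2 fold change -2.97, adjusted p = 0.0397) was lost with the eye as a block (0.0718).

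**Figure D4:**
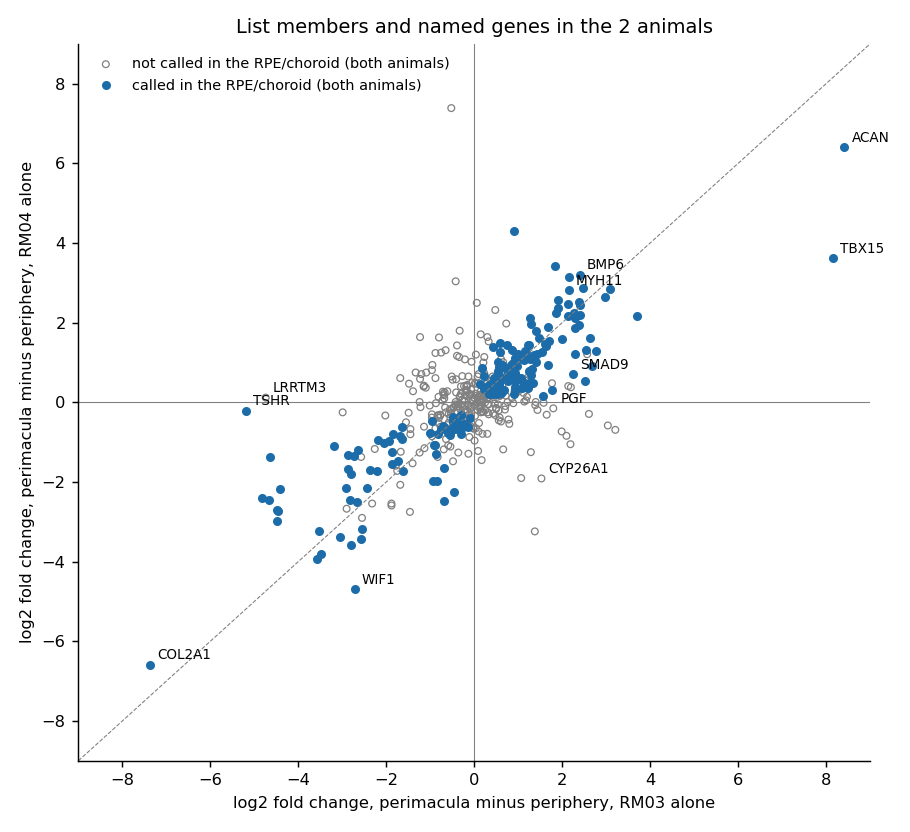
Log2 fold change (perimacula minus periphery) of list members and named genes in RM03 alone (horizontal axis) and RM04 alone (vertical axis), 1 point per gene, filled where called over both animals, with a dashed line of equality. MYH11 lies near the line at 2.15 and 2.82, whereas TSHR lies at -5.19 and -0.21, and the position of ACAN depends on a single count at the periphery.

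The retina of the same eyes was split into the same locations on the same flow cells, so the contrast in the retina shows which differences were shared by both tissues. In a fit over 24 libraries 6683 of 16284 genes (41.0%) were called in the retina. Of the genes called in the RPE/choroid, 3041 were called in the retina in the same direction (55.6% of the RPE/choroid calls and 45.5% of the retinal calls) and 317 in the opposite direction. OPTN, KLF2, APOC1 and ALDH1A3 differed by similar amounts in the retina, with log2 fold changes of 2.03, 2.50, -2.03 and -2.03. A shared location effect and the shared flow cell cannot be told apart for these genes.

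The difference itself depended on the tissue in 3053 of 16284 genes (18.7%), of which 1613 were more perimacular in the RPE/choroid and 1440 more peripheral. With an eye left out the number was 1493 to 2547, lowest without the RM04 left eye. SHROOM4, a regulator of actin, had 34.9, 42.5, 48.8 and 56 CPM at the perimacula and 18.9, 20.6, 22.9 and 22.1 CPM at the periphery of the RPE/choroid, with a log2 fold change of 1.10 there and -1.19 in the retina (difference 2.32, adjusted p = 1.87e-07). SORBS2, an adaptor of the cytoskeleton, had 1.31 and -0.51, and FLNC, filamin C of muscle, 1.17 and -3.93. PRUNE2 went the other way, with -2.88 in the RPE/choroid and 0.57 in the retina. GPC4 and TRDN were called in this test although neither was called in the RPE/choroid itself, at log2 fold changes of 0.06 (adjusted p = 0.831) and 0.54 (0.0621), against -4.19 and -5.22 in the retina.

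The dependence on the tissue was looked up for genes named above, and no list was tested for it. Among smooth muscle genes, LMOD1, ACTA2, DES and CASQ2 had differences between the tissues of 1.70, 2.29, 2.60 and 2.07 (adjusted p = 0.000213, 0.000938, 0.000347 and 0.00844), whereas MYH11, at 1.10, did not pass (0.17). PDGFRB (1.12), COL6A1 (1.38), CFD (2.78) and SULF1 (1.63) were also more perimacular in the RPE/choroid, and C7 (-2.05), MEIS1 (-1.59) and KIF5C (-3.68) more peripheral. WIF1 was more peripheral in the RPE/choroid by -2.12 (0.0423), and for BMP6 and EMCN the differences of 1.07 and 0.43 did not pass (0.13 and 0.117).

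**Figure D5:**
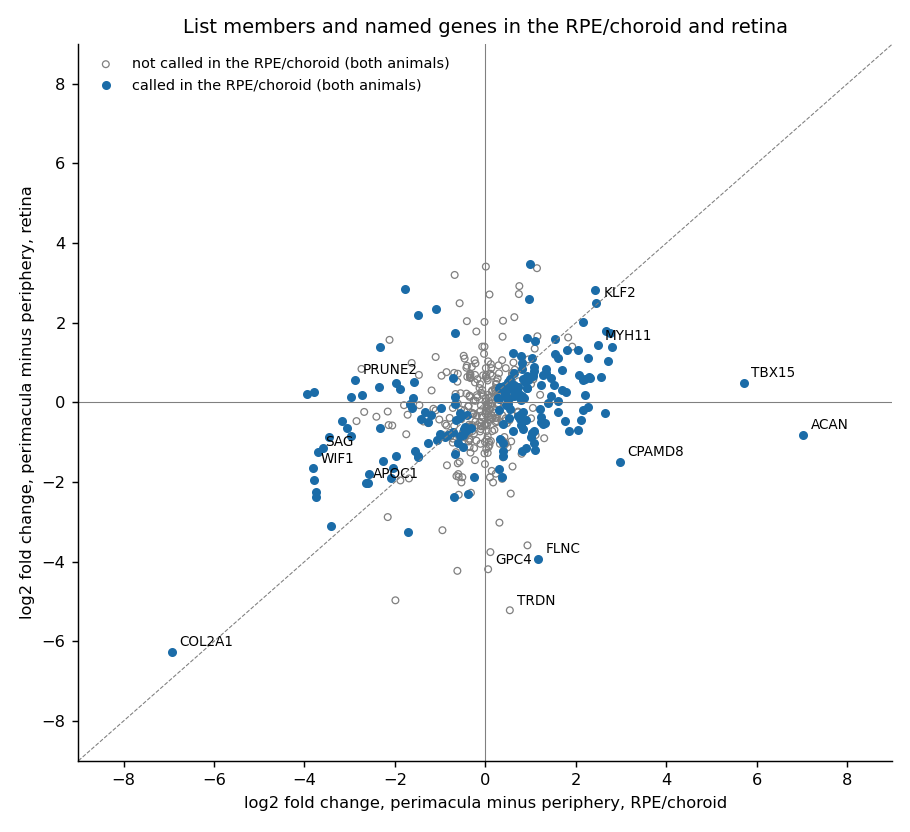
Log2 fold change (perimacula minus periphery) of list members and named genes in the RPE/choroid (horizontal axis) and in the retina (vertical axis), 1 point per gene, filled where called in the RPE/choroid, with a dashed line of equality. KLF2, APOC1 and COL2A1 lie near the line, whereas FLNC (1.17 and -3.93) and CPAMD8 (2.98 and -1.49) lie far below it.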

How the data were processed

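RNA of RPE/choroid and retina punches from 4 eyes of 2 rhesus macaques was sequenced by the authors from poly-A libraries with paired-end reads. Per the paper's methods and the labels, the authors quantified reads with Salmon against the Mmul_8.0.1 annotation and summarised transcripts to genes with tximport. The authors deposited estimated counts per gene and lane, scaled by transcript length and held in a column headed TPM that holds no TPM values. Human symbols were assigned by the authors through orthology. No strand is stated, so overlapping genes are uncertain.

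Here the lanes of each library were summed (28 of 136 lanes for these 8 libraries) and rounded. Each library held 52455814 to 69034378 counts, so counting error is small beside the spread between eyes except in genes under about 1 CPM. Library totals were scaled by TMM. Genes passing filterByExpr by location at a minimum count of 10 were tested with edgeR 4.0.16 (quasi-likelihood, R 4.3.3) over 12 RPE/choroid libraries with the animal as covariate. Dependence on animal or tissue was tested as an interaction. DESeq2 1.42.0 was an alternative. Lists, described without a test, used 1 entry per symbol, the entry with the highest mean.

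The gene lists and the comparison were chosen with earlier results of these data known. Named genes were the 15 largest fold changes in each direction among called genes averaging 3 log2 CPM or more (prior count 2), a symbol of 1 entry and the same direction in 4 eyes, up to 4 called members of each list with the lowest adjusted p plus members whose role was needed, 19 genes taken from the study's text, and up to 10 genes per interaction test. Members beyond the first 4 of a list were added for their role or after their values were seen.

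Replicate numbers mark the same eye in every location. Deviations of same-numbered libraries from their group means, taken over the 1000 most variable genes, correlated at 0.154 to 0.443, and with the fellow eye at 0.239 to 0.408, so the correlation does not tell eye from animal. The pairing rests on the labels, which give the same eye. On simulated counts with 200 genes changed by 1.5 on the log2 scale, 82% were recovered with 6.29% false calls among 15557 genes for the location difference, and 47% with 4.08% among 15548 genes for its dependence on the animal. Only genes above a minimum count were changed, and the simulated libraries had no other differences between animals or eyes. Far fewer genes were changed than were called here, so these rates do not carry over to genes with few counts or to the real libraries. No genome of the authors' build was used, so no coordinates or promoter sequences are given. Some list members were counted but are not reported here.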

Additional observations from a re-analysis of the deposited data

Results flagged for a closer look

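Dixon's criterion at its 95% critical value was applied to 86 groups of list sums and named genes, and chance alone picks about 1 in 20 groups. It picked 2. The summed cone genes at the perimacula of the RM04 left eye stood at 295 CPM, apart from 131 to 144 CPM in the other perimacula libraries. CNN1 at the perimacula of the RM03 right eye stood at 121 CPM, apart from 73.1 to 77.3 CPM in the other eyes.

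The location difference of LRRTM3 differed between the animals by 4.87 (RM04 minus RM03, log2 scale, interaction test).

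The difference between perimacula and periphery differed between tissues (RPE/choroid minus retina, log2 scale, interaction test) by 2.32 for SHROOM4, 1.86 for SORBS2, 5.13 for FLNC, -3.43 for PRUNE2, 4.29 for GPC4, 1.28 for RAB13, 1.46 for TAGLN2, 5.79 for TRDN, 2.07 for ATP2B4 and 2.02 for VIM. RAB13 and TAGLN2 had 115 ± 4.64 and 383 ± 11 CPM at the perimacula and 91.8 ± 6.28 and 293 ± 12.3 CPM at the periphery (SD, n = 4 eyes), and were lower at the perimacula in the retina. ATP2B4, a calcium pump, had 179 ± 15.4 CPM against 96.8 ± 9.32 CPM in the RPE/choroid.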

How the results depend on the processing

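The number of genes called between perimacula and periphery was recomputed with DESeq2, another normalization, other filters, no covariate, other sets of libraries, 2 lanes per library and equal depth, and lay between 4016 (no covariate) and 6151 (DESeq2) against 5471. Pairing by eye (replicate block) gave 4989, of which 4912 were shared with the 5471. Leaving out an eye gave 3314 to 4972 and leaving out a library up to 5793. The genes called higher at the perimacula then numbered 1716 to 2565 and up to 2936, and the genes called higher at the periphery 1598 to 2407 and up to 2857, all lowest without the RM04 left eye. RM03 alone gave 1561 (926 and 635) and RM04 alone 3315 (1778 and 1537), with fewer libraries in each fit, and the share of calls higher at the perimacula was 59.3% in RM03 against 50.6% over both. The genes whose difference depends on the animal numbered 229 with DESeq2, 0 with at least 10 counts in every library (as in edgeR without the RM04 right or left eye), 1 with the replicate block and 0 to 114 with an eye left out (114 without the RM03 right eye). The genes whose difference depends on the tissue numbered 2664 with the replicate block and 1493 to 2547 with an eye left out, 1948 without the RM03 right eye and 1493 without the RM04 left eye. A further 2 alternatives were chosen after seeing the data. Without the 2 periphery libraries with the most rod signal 4944 genes were called, and without the 2 libraries with the most Schwann cell signal 5084.

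Of 197 named genes called, 12 were not called with the replicate block, 60 without a covariate, 112 in RM03 alone and 64 in RM04 alone. Fold changes turned sign with a call for COCH (-1.05 in RM04 alone), CYP26A1 (1.53 in RM03 alone), WNT5A (-0.64 to 1.01 with an eye left out, 1.01 without replicate 3), and RDH11 (0.81) and TRPM3 (0.94) without the 2 periphery libraries with the most rod signal. The causes were not tested. Thinning all libraries to the depth of the shallowest gave 5454 called genes, but the libraries differed little in depth, so this does not show what depth limits. Promoter sequences could not be described.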
